A study of Mus musculus with 4 samples.

Results

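The AP-1 and EGR immediate early genes were followed by RNA-seq in MG5, a mouse microglial cell line. Its genotype is given as wild type, which was not checked here. The cells were grown in medium that was partly conditioned by astrocyte-like A1 cells. The 10 genes were chosen by symbol, out of 45777 genes in the table, and are the FOS genes Fos, Fosb, Fosl1 and Fosl2, the JUN genes Jun, Junb and Jund, and the EGR genes Egr1, Egr2 and Egr3. In 2 libraries the cells had received 10 µM 6OHA for 6 h, a compound given by code name that acts as a retinoid X receptor (RXR) agonist. They are called 6OHA replicates 1 and 3, and control replicates 1 and 2 came from untreated cells, for which no solvent is stated. Cells given bexarotene were not analysed here. All groups are 1 cell line, and the labels do not state separate cultures for the libraries of a group. The p-values therefore cover only variation among these 4 libraries, and that variation may be technical.

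FOS and JUN proteins carry a leucine zipper and bind DNA in pairs as the factor AP-1. FOS proteins pair with JUN proteins, while JUN proteins can also pair with each other and with ATF, BATF and MAF relatives. EGR proteins are zinc finger factors that bind GC-rich sites and are held in check by the corepressors Nab1 and Nab2. Many of these genes are immediate early genes, which means that growth factors, cytokines and stress switch them on within minutes, through MAP kinases acting on the serum response factor SRF and on CREB, and that their short-lived transcripts then decay. In macrophages and microglia they take part in activation, survival and differentiation, and nuclear receptors such as the retinoic acid receptors are known to oppose AP-1 at some promoters.

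The bases just upstream of 4 of the genes hold short letter matches to known promoter elements. Whether these matches act in MG5 cells was not tested. The promoters are those of RefSeq on GRCm38.p6, the assembly that the build name mm10 stands for, and the table matched 7 of the 10 genes. Each is read 5′ to 3′ on the strand of the gene. For Fos (chr12:85473740-85473879, plus strand), Fosb (chr7:19310056-19310195, minus strand) and Jun (chr4:95052233-95052372, minus strand) the stretch runs from 150 to 11 bases before the start. For Egr2 (chr10:67537787-67537816, plus strand) it runs from 82 to 53 bases before it. Capitals mark TGACG, the first letters of the cAMP response element, in Fos and Fosb, TATAAA in Fos, the letters TGACATCA in Jun, and the CArG box, the binding site of SRF, in Egr2.
Fos: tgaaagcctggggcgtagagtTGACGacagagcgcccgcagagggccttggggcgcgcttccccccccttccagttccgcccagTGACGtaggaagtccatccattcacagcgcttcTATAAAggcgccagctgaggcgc
Fosb: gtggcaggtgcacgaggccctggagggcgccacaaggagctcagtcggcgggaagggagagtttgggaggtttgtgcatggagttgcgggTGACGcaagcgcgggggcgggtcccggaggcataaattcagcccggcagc
Jun: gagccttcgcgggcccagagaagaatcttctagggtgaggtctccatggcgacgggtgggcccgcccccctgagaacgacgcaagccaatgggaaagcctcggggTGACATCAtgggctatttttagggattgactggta
Egr2: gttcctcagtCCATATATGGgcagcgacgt

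Matches were counted on both strands in the 250 bases before each start. TGACG lay in 4 of the 7 genes, namely Fos, Fosb, Junb and Egr2, against 29.8% of 10508 tested genes with a promoter in the table. In Fos it began 66 and 129 bases before the start and TATAAA began 33 bases before it, which 8.53% of tested genes had. TGACATCA, a variant of the AP-1 site with an extra base, was in Jun alone, 45 bases before the start, against 2.01% of tested genes. The CArG box was in Egr2 alone of the 7, 72 bases before the printed start, against 1.28%. Egr2 had several starts searched. Sites more than 250 bases upstream were not searched, and Egr1, Egr3 and Fosl1 were not among the 7. The counts therefore do not show that the other members lack a CArG box. The full cAMP response element TGACGTCA, the AP-1 site TGANTCA, the EGR site GCGTGGGCG and the DR1 site, a repeat bound by RXR pairs, were in none of the 7, against 3.02%, 5.76%, 1.19% and 0.0571% of tested genes. TGACGTCA contains TGACG, so those matches overlap by construction. TGACG and TGACATCA were added after the other motifs had been searched.

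Total counts ran from 31057950 to 42541641 per library. In each group replicate 1 differed from the other library with GC content. Over 1367 tested genes with a transcript GC content of 57.4% or more, the median difference was 0.19 on the log2 scale between 6OHA replicates 3 and 1 and 0.26 between control replicates 2 and 1. Of the members, Junb (62.6% GC), Jund (67.2%) and Fosl1 (58.5%) lie in that range, and Egr1 (57.3%) and Fosb (56.0%) lie just below it. Of 17 microglial markers 15 were tested, led by Csf1r and Itgam, with Sall1 and Siglech at 0 counts. Of the 15, 14 did not pass an adjusted p of 0.05, a mark that 2.02% of all tested genes passed. The median log2 fold change of the 15 was -0.03, with Csf1r at 0.10 (adjusted p = 0.823) and Itgam at -0.04 (0.948). The 1 that passed was Cx3cr1, the fractalkine receptor of microglia, which fell by 0.81 on the log2 scale (SE 0.11, adjusted p = 0.00257).

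Of the marker lists of other cell types, the summed levels of 4 did not overlap between the groups. They were lower with 6OHA for astrocytes, neurons and endothelium and higher for oligodendrocytes. Among all tested genes taken singly, 38.8% had groups that did not overlap. The summed level of 7 astrocyte markers was 10.0 and 10.4 transcripts-per-million (TPM) in 6OHA and 15.3 and 15.3 TPM in control, with the defining markers Gfap and Aqp4 at 0 counts throughout. It came mostly from Aldh1l1, at -0.46 (adjusted p = 0.128), and Slc1a2, at -0.72 (0.101). The summed level of 5 neuronal markers was 4.51 and 5.87 TPM in 6OHA and 8.25 and 8.29 TPM in control, with Rbfox3 and Syt1 at 0 counts. Among them Map2 fell from 10.9 ± 0.369 to 6.47 ± 0.329 counts-per-million (CPM; SD, n = 2; adjusted p = 0.0273) and Snap25 did not pass (adjusted p = 0.379). Map2 no longer passed when one of 3 libraries was left out, with an adjusted p of 0.139 for 6OHA replicate 1, 0.0634 for 6OHA replicate 3 and 0.0704 for control replicate 1, nor with no filter or on FPKM or TPM values (0.0924 to 0.3335). Oligodendrocyte markers summed to 47.7 and 49.3 TPM in 6OHA and 43.1 and 41.7 TPM in control, mostly from Mbp, at 0.31 (adjusted p = 0.170), with Mog and Olig2 at 0. Endothelial markers summed to 79.2 and 80.6 TPM in 6OHA and 97.4 and 86.1 TPM in control, with Cldn5 at 0. They were led by Kdr, at -0.21 (adjusted p = 0.441), and Cdh5, at -0.09 (0.940). Fibroblast markers summed to at most 0.0466 TPM. The part of these markers in the results below was not tested.

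In levels per transcript length, Jun, Junb, Fosl2 and Jund were the abundant members, and Fosb and Fosl1 were close to absent. These levels are the deposited TPM values, which can be compared between genes. Jun, the founding AP-1 subunit, ranged from 62.3 to 98.6 TPM over the 4 libraries and Junb from 43.8 to 83.7 TPM, so these ranges overlapped, with Jun the higher in 3 of 4 libraries. Fosl2 ranged from 32.4 to 37.1 TPM and Jund from 22.7 to 38.2 TPM, again with overlap. Below them the ranges were apart at every step, from Egr1 (14.3 to 19.6 TPM) to Fos (5.22 to 10.5), Egr2 (3.56 to 4.53), Egr3 (1.27 to 1.77), Fosb (0.224 to 0.541) and Fosl1 (0 to 0.0710). By mean TPM, Jun lay at the 85.1th percentile of tested genes, Fos at the 35.3th and Fosb at the 5.92th.

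**Figure D1:**
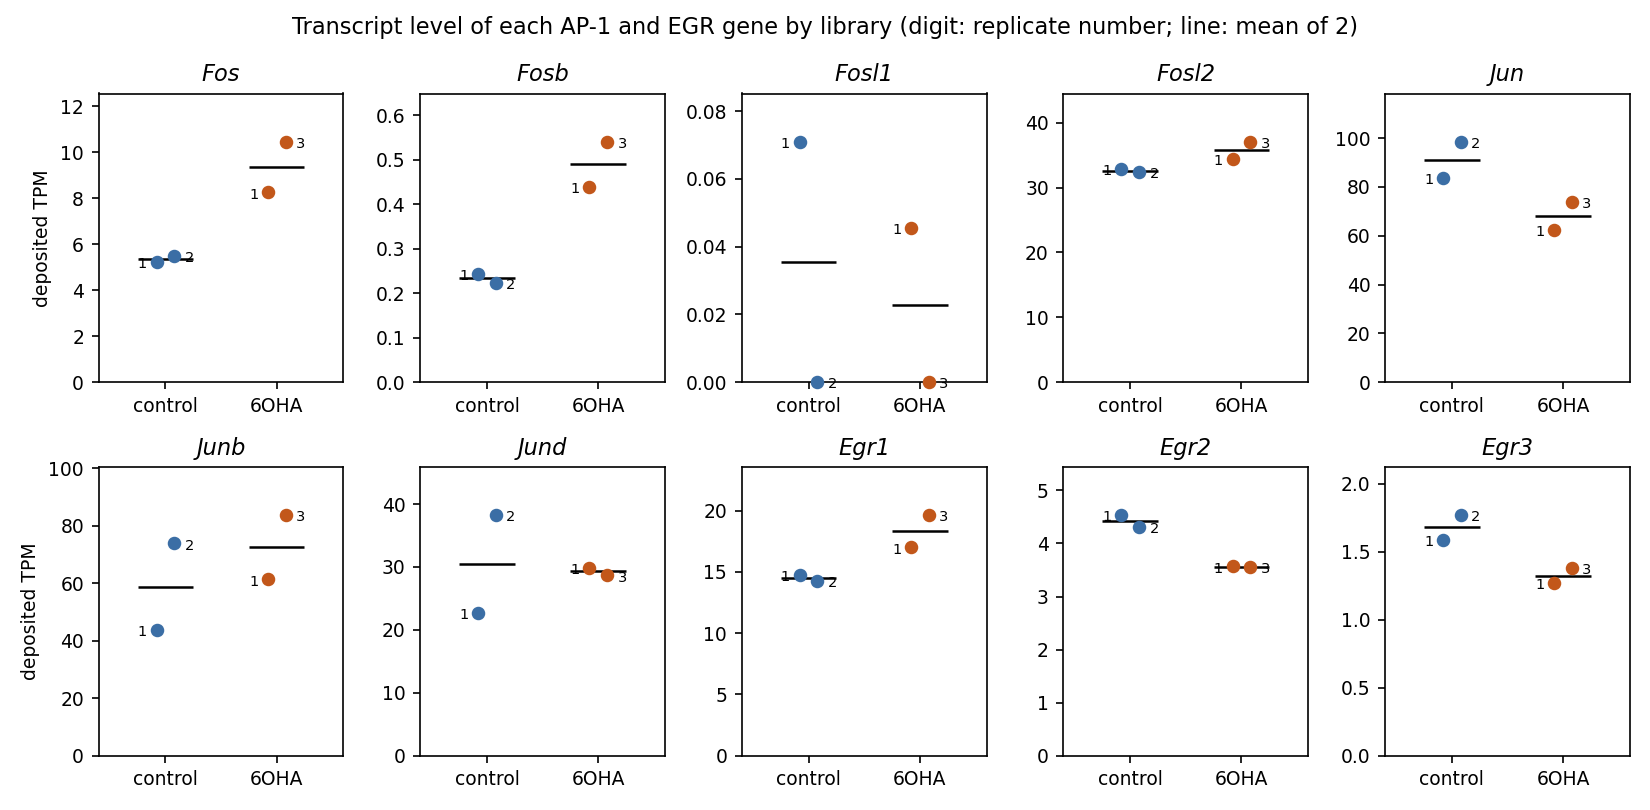
Deposited TPM (y axis, from 0, with its own range in each panel) of the 10 genes in control and 6OHA libraries. Points are libraries with their replicate number and lines are means of 2. Fos, Fosb, Fosl2 and Egr1 lie higher in both 6OHA libraries and Jun, Egr2 and Egr3 lower, while Junb and Jund differ more between the control libraries than between the group means.

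After 6 h with 6OHA the Fos transcript was 1.77-fold higher, and it was the only one of the 10 genes past the threshold. The threshold was a Benjamini-Hochberg adjusted p under 0.05 in edgeR's quasi-likelihood test over 14634 genes. Of the 9 members tested, 1 rose and 8 did not pass, against 2.02% of all tested genes past it, 1.39% higher and 0.629% lower. With 1 call among 9 genes, nothing is read from that share about the families. The treated libraries were taken at 6 h alone, so an earlier, passing change would not be seen. In bulk RNA a change in the number of cells that express a gene and a change in RNA per cell cannot be told apart. The groups did not overlap for 7 of the 9, with 6OHA above in 4 and below in 3, against 38.8% of all tested genes, 18.7% above and 20.1% below. At an unadjusted p under 0.05 there were 4 members, Fos, Fosb, Jun and Egr1, against 10.9% of all tested genes. The median log2 fold change of the 9 was 0.15, beside -0.01 for all tested genes.

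Fos (Entrez gene 14281, chromosome 12 from 85473890 to 85477274) encodes the classical partner of Jun and is the best known immediate early gene. With 6OHA it stood at 8.21 CPM (replicate 1) and 10.4 CPM (replicate 3), and the untreated libraries gave 5.06 CPM (replicate 1) and 5.50 CPM (replicate 2). Both 6OHA libraries lay above both controls, and 6OHA replicate 3 was the highest. The group levels were 9.29 ± 1.52 against 5.28 ± 0.317 CPM (SD, n = 2), a log2 fold change of 0.82 (SE 0.17, 95% interval 0.44 to 1.21, adjusted p = 0.0401). The counts behind it were 253, 362, 217 and 191 in the same order. The call was lost without 6OHA replicate 3 (log2 fold change 0.64, adjusted p = 0.306), without control replicate 1 (0.76, 0.112) and without control replicate 2 (0.88, 0.0535). It was also lost with limma-voom (adjusted p = 0.0635), with no filter (0.165) and on FPKM or TPM values (0.132 to 0.152). With a GC trend removed from each library the difference was 0.82 (adjusted p = 0.00550).

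Fosb (14282, chromosome 7 from 19302696 to 19310118), a close relative of Fos that also makes a shortened long-lived form, was the least abundant tested member. It had 25 and 34 counts in the 6OHA libraries and 19 and 14 in the controls, or 0.812 and 0.973 CPM against 0.443 and 0.403 CPM. The groups did not overlap, but each value rests on at most 34 reads. The log2 fold change was 1.07 with an SE of 0.41 (95% interval 0.17 to 1.97), and it did not pass (adjusted p = 0.325). These levels do not tell the long and the shortened form apart.

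Fosl2 (14284, chromosome 5 from 32136472 to 32157840) encodes Fra-2, a FOS protein without the strong activation domain of Fos. It was the main FOS transcript of these cells and differed little, at 94.96 and 102 CPM in 6OHA against 88.1 and 89.8 CPM in control. The 6OHA libraries lay above the controls by less than their distance from each other. The log2 fold change was 0.15 (SE 0.09, 95% interval -0.06 to 0.35, adjusted p = 0.681). Fosl1 (14283, chromosome 19 from 5447698 to 5455938), which encodes the related Fra-1, had 2 and 0 counts in 6OHA and 3 and 0 in control, and was not tested. A count of 0 allows up to 0.0850 CPM in 6OHA replicate 3 and 0.0872 CPM in control replicate 2, which is the level of 3 counts and reflects counting error alone. Of the distinct 31-base stretches of Fosl1 transcripts, 54.5% also occur in Ccdc85b on the other strand, so even these reads are uncertain, since the use of strand in counting is not stated.

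Jun (16476, chromosome 4 from 95049036 to 95052222) was 1.32-fold lower on average but did not pass. It measured 93.4 and 110 CPM in 6OHA against 122 and 148 CPM in control. All 4 libraries were apart from each other, with both 6OHA libraries below both controls and replicate 1 the lower in each group. The log2 fold change was -0.41 (SE 0.12, 95% interval -0.67 to -0.14, adjusted p = 0.165). It passed with the DESeq2 test (-0.40, adjusted p = 0.0468, where 3.46% of 12364 genes passed), with a GC trend removed from each library (-0.39, adjusted p = 0.00511) and without control replicate 1 (-0.54, adjusted p = 0.0378). It was -0.29 without 6OHA replicate 1 (adjusted p = 0.847), -0.53 without 6OHA replicate 3 (0.0766) and -0.26 without control replicate 2 (0.302). Junos, an antisense RNA that overlaps the start of Jun and shares 6.39% of its 31-base stretches, measured 13.8 and 11.97 CPM in 6OHA and 19.0 and 15.7 CPM in control (log2 fold change -0.44, adjusted p = 0.236). The summed counts of Jun and Junos differed by -0.41.

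Junb and Jund, whose proteins are weaker activators than Jun and can oppose it, differed more between the control libraries than between the group means. Junb (16477, chromosome 8 from 84976909 to 84978748) measured 53.0 and 72.2 CPM in 6OHA and 36.8 and 64.2 CPM in control. The groups overlapped, and control replicate 2 was 1.74-fold above control replicate 1. The log2 fold change was 0.32 (SE 0.22, adjusted p = 0.727). Leaving out control replicate 1 gave -0.03, and leaving out control replicate 2 gave 0.77, which passed (adjusted p = 0.0383). Jund (16478, chromosome 8 from 70697739 to 70700616) measured 40.5 and 38.7 CPM in 6OHA, between the controls at 29.9 and 52.0 CPM. Its log2 fold change was -0.04 (SE 0.20, adjusted p = 0.9748), at -0.39 without control replicate 1 and 0.40 without control replicate 2.

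Removing a GC trend from each library narrowed the gap between the control libraries for both genes without closing it. Corrected levels of Junb were 58.4 and 68.5 CPM in 6OHA and 40.1 and 55.4 CPM in control, no longer overlapping (log2 fold change 0.41, adjusted p = 0.0809). Corrected levels of Jund were 45.2 and 37.3 CPM against 32.9 and 42.5 CPM (0.12, adjusted p = 0.679). For Jund the correction moved the 6OHA libraries further apart, from 40.5 and 38.7 CPM before it. Of the 31-base stretches of Jund, 50.1% also occur in Gm11175, an antisense gene, and 6.51% of those of Junb occur mostly in its neighbour Prdx2 on the other strand.

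Egr1 was higher, and Egr2 and Egr3 lower, in both 6OHA libraries than in both controls, and none of the 3 passed. Egr1 (13653, chromosome 18 from 34861207 to 34864956), the family member that responds to most stimuli, measured 24.6 and 28.3 CPM in 6OHA against 20.7 and 20.7 CPM in control. The controls were nearly equal and 6OHA replicate 3 was the highest. The log2 fold change was 0.35 (SE 0.12, 95% interval 0.09 to 0.62, adjusted p = 0.248). With a GC trend removed it was 0.37 and just passed (adjusted p = 0.0495), in a fit where 5.45% of all genes and 3 of the 9 members, Fos, Jun and Egr1, passed.

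Egr2 (13654, chromosome 10 from 67534469 to 67542188), which is needed for myelinating Schwann cells and is used as a marker of alternatively activated mouse macrophages, measured 5.00 and 4.95 CPM in 6OHA against 6.15 and 6.08 CPM in control. The second library of each group lay within a few percent of the first, and the groups did not overlap. At 154 to 264 counts the model gave a log2 fold change of -0.30 with an SE of 0.17 (adjusted p = 0.612). Egr3 (13655, chromosome 14 from 70077317 to 70082613), a target of Egr1 in other cells, measured 2.43 and 2.63 CPM against 2.91 and 3.40 CPM. Its log2 fold change was -0.31 (SE 0.22, adjusted p = 0.749). Egr4, the remaining relative, had 2 counts in control replicate 1 and 0 in the other libraries.

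**Figure D2:**
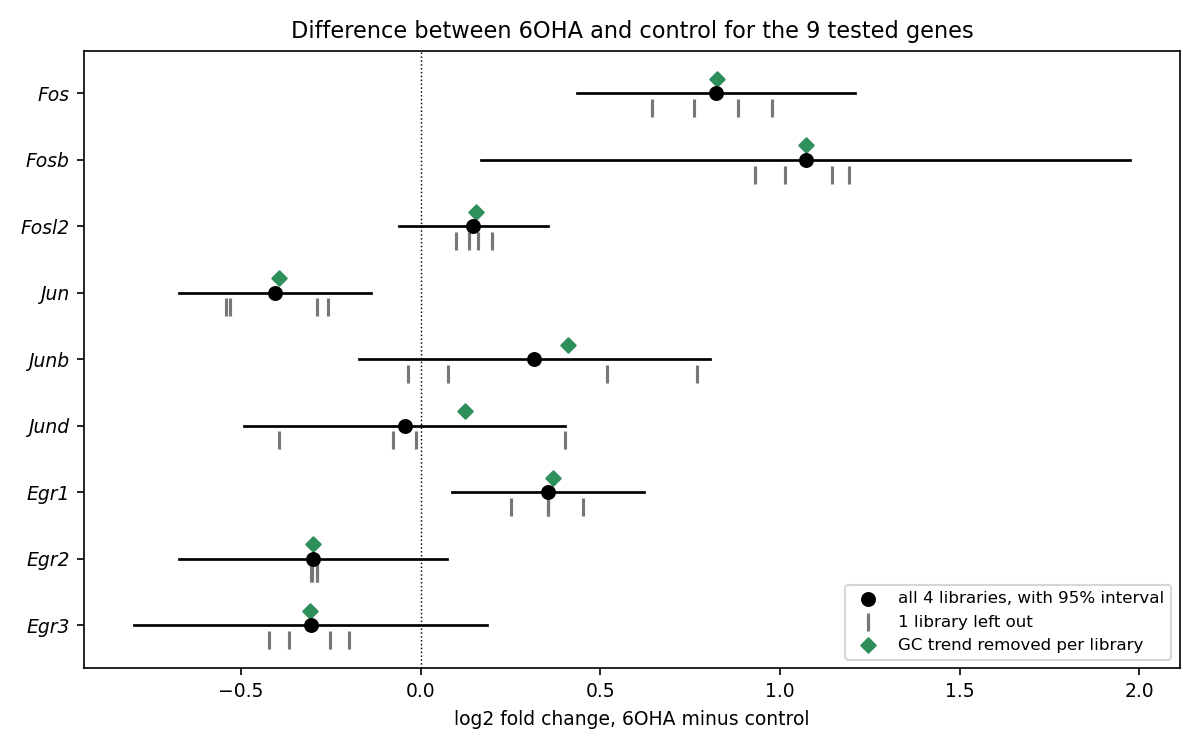
Log2 fold change of 6OHA minus control (x axis) for the 9 tested genes (rows). Black points with bars are edgeR estimates with 95% intervals, grey ticks leave out 1 library each, and green diamonds have a GC trend removed per library. The ticks of Junb and Jund reach both sides of 0, those of Fos stay between 0.64 and 0.98 and those of Egr2 lie close together.

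The share of Fos among FOS transcripts and of Egr1 among EGR transcripts was higher in both 6OHA libraries, and the share of Jun among JUN transcripts was lower. FOS transcripts summed to 43.2 and 48.1 TPM in 6OHA and 38.4 and 38.1 TPM in control. Fos made up 19.1% and 21.8% of that sum in 6OHA and 13.6% and 14.4% in control, with Fosl2 as nearly all of the rest. JUN transcripts summed to 154 and 186 TPM in 6OHA and 150.1 and 211 TPM in control, which overlap. Jun was 40.6% and 39.7% of the JUN sum in 6OHA and 55.7% and 46.8% in control, and Junb was 39.9% and 44.9% against 29.2% and 35.1%. The groups did not overlap for either share, and Jun and Junb were about level in 6OHA.

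Set against each other, the level of Fos was 13.2% and 14.2% of that of Jun in 6OHA and 6.25% and 5.59% in control. JUN transcripts outnumbered FOS transcripts in every library, with FOS at between 18.1% and 28.1% of JUN. EGR transcripts summed to 21.9 and 24.6 TPM in 6OHA and 20.9 and 20.3 TPM in control. Egr1 made up 77.9% and 79.9% of that sum in 6OHA and 70.7% and 70.1% in control. The ratio of Egr1 to Egr2 was 4.77 and 5.52 in 6OHA and 3.25 and 3.31 in control. These are descriptions of each library, since an exact two-sided test of 2 against 2 libraries cannot reach the threshold at all, its smallest p being 1 in 3.

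**Figure D3:**
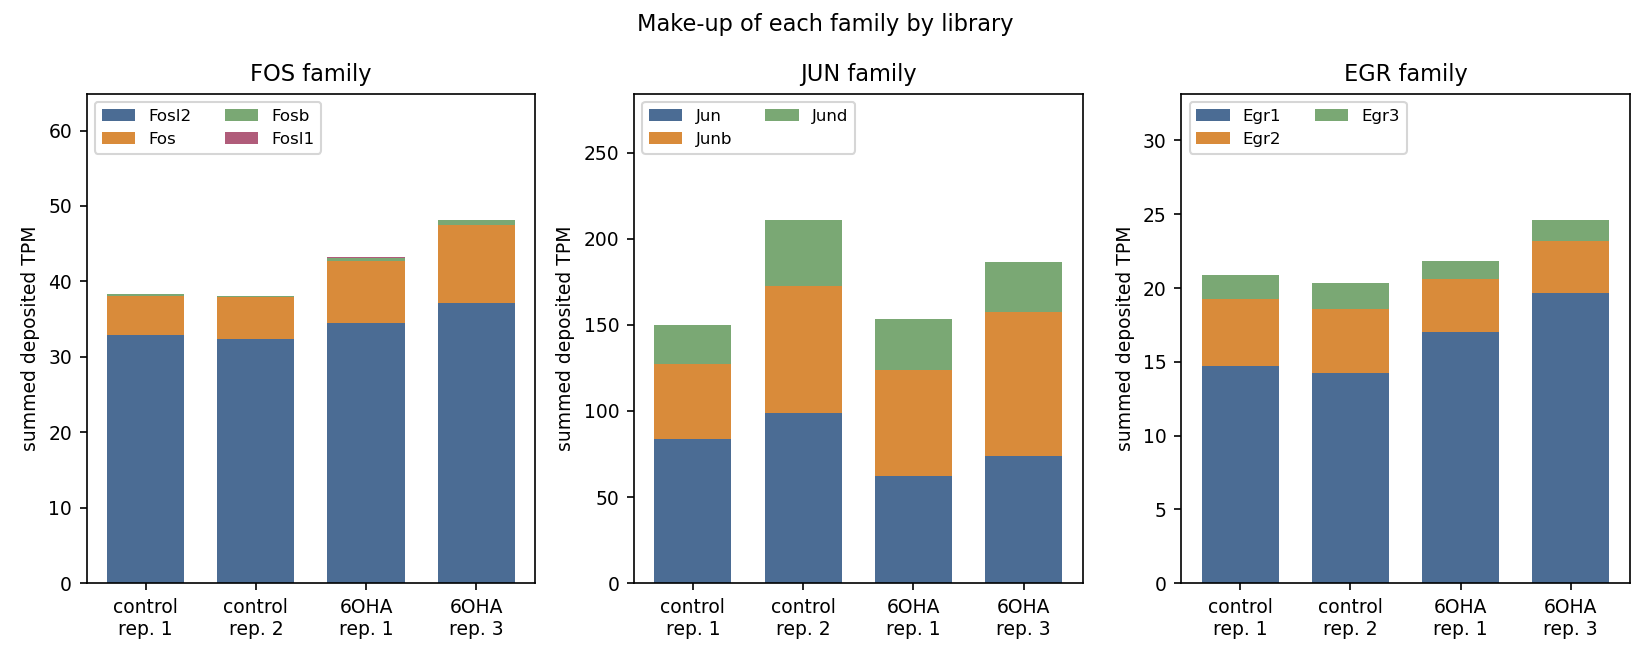
Summed deposited TPM (y axis, from 0) of the FOS, JUN and EGR genes in each library (bars), with coloured segments for the genes. Fos takes a larger part of the FOS bars in 6OHA, Jun a smaller part of the JUN bars and Egr1 a larger part of the EGR bars, while the total JUN level varies most between control libraries.

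For the related lists, the shares of all tested genes to set beside the counts are the 1.39% higher and 0.629% lower given above, 5.45% with the GC trend removed and 3.46% with the DESeq2 test, in either direction. Among other AP-1 partners, 2 of 12 tested genes rose and 10 did not pass, with a median log2 fold change of 0.08. Jdp2, whose protein pairs with JUN proteins and represses AP-1 sites, measured 33.4 and 37.2 CPM in 6OHA against 19.3 and 25.4 in control, which is 0.66 higher on the log2 scale (SE 0.14, adjusted p = 0.0401). The groups did not overlap. The call of Jdp2 was lost without 6OHA replicate 3 (adjusted p = 0.0900) or control replicate 1 (0.0959). Of the EGR corepressors, Nab1 was at -0.01 (adjusted p = 0.992) and Nab2, itself an EGR target, at -0.02 (0.986), and neither had an unadjusted p under 0.05 or passed with the DESeq2 test, limma-voom or the GC trend removed.

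Of 49 other immediate early genes tested, 1 rose, 3 fell and 45 did not pass, with a median of -0.11. With the GC trend removed 6 rose and 7 fell, and the DESeq2 test called 8. Of the 49, 22 had an unadjusted p under 0.05, against 10.9% of all tested genes. The groups did not overlap for 31, against 38.8%. The log2 fold change was above 0 for 21 and below 0 for 28. Klf4 was known from earlier results of these data when this list was chosen, so the counts are description only. Dusp6, a phosphatase that switches off ERK and is itself induced by ERK signalling, rose to 262 and 266 CPM from 161 and 175 CPM (log2 fold change 0.65, SE 0.09, adjusted p = 0.00307). Dusp4, a nuclear phosphatase of the same family, fell to 23.1 and 27.8 from 39.8 and 37.5 CPM (-0.60, SE 0.12, adjusted p = 0.0292). Klf4, a zinc finger factor of macrophages, fell to 17.5 and 19.4 from 27.4 and 36.0 CPM (-0.78, SE 0.15, adjusted p = 0.0211). Rgs2, a brake on G protein signalling, fell to 69.7 and 65.4 from 96.0 and 88.1 CPM (-0.45, SE 0.10, adjusted p = 0.0471). The call of Dusp4 was lost without 6OHA replicate 1 (adjusted p = 0.302) or control replicate 1 (0.0704). That of Rgs2 was lost without 6OHA replicate 1 (0.161), 6OHA replicate 3 (0.425) or control replicate 1 (0.0914), in edgeR's legacy mode (0.0662) and with limma-voom (0.0554).

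Upstream of the members, 1 of 19 tested genes of the MAP kinase pathways fell and 18 did not pass, while with the GC trend removed 1 rose and 2 fell. Map2k6, a kinase that activates p38, fell from 19.9 and 18.2 CPM in control to 11.04 and 8.42 in 6OHA, by 0.98 on the log2 scale (SE 0.15, adjusted p = 0.00712). All 9 tested genes of the SRF, ternary complex and CREB list missed the threshold, including the 2 with the highest levels, Elk3 at -0.06 (adjusted p = 0.940) and Mrtfb at 0.23 (0.356). In that list 1 gene, Mrtfb, had an unadjusted p under 0.05, and the DESeq2 test, limma-voom and the GC trend removed called 0. The medians of the MAP kinase and SRF lists were -0.02 and 0.02. The 6 heat shock genes, which respond to handling and proteotoxic stress, likewise missed it, with Hspa8 at 0.11 (adjusted p = 0.779) and Hsp90aa1 at 0.10 (0.850). Of them 2 had an unadjusted p under 0.05, in opposite directions, namely Hsph1 at 0.39 (adjusted p = 0.0908) and Hspa1b at -0.73 (0.383). In this list 1 gene passed with the DESeq2 test, 0 with limma-voom and 1 with the GC trend removed.

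Genes often listed as AP-1 targets in myeloid cells went both ways, with 3 of 20 tested genes risen, 2 fallen and 15 short of the threshold, and a median of -0.00. With the GC trend removed 3 rose and 6 fell. Of the 20, 10 had an unadjusted p under 0.05 and 16 had groups that did not overlap, against 10.9% and 38.8% of all tested genes. Vegfa, Hbegf and Ccl2 were known from earlier results of these data when the list was chosen. Nothing is therefore read from these counts about AP-1 targets. Vegfa, a growth factor for vessels, measured 116 and 133 CPM in 6OHA against 17.9 and 19.0 CPM in control, and Hbegf, an EGF family ligand, 30.4 and 28.7 against 8.25 and 7.69 CPM (log2 fold changes 2.76 and 1.89, adjusted p = 1.02e-06 and 5.26e-05). The chemokine gene Ccl2 rose by 0.63 (adjusted p = 0.00338), though on FPKM and TPM values its adjusted p was 0.0508 to 0.0897. The collagenase gene Mmp13 fell to 164 and 145 from 250 and 235 CPM (-0.65, SE 0.10, adjusted p = 0.00482). The elastase gene Mmp12 fell by 0.43 (adjusted p = 0.0442), a call lost on leaving out any 1 library (adjusted p = 0.0710 to 0.515) and with a filter at a mean of 5 CPM (0.0545). Of 12 tested EGR targets, 1 fell, the matrix gene Thbs1, to 10.7 and 12.1 from 19.3 and 19.0 CPM (-0.75, SE 0.13, adjusted p = 0.0132, but 0.0834 without 6OHA replicate 1). With the GC trend removed 1 EGR target rose and 1 fell. The calls of Jdp2, Dusp4, Klf4, Rgs2, Map2k6, Mmp12 and Thbs1 were each lost with no filter and on FPKM and TPM values (adjusted p = 0.0639 to 0.213). Those of Dusp6, Vegfa, Hbegf and Mmp13 passed under every alternative run.

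**Figure D4:**
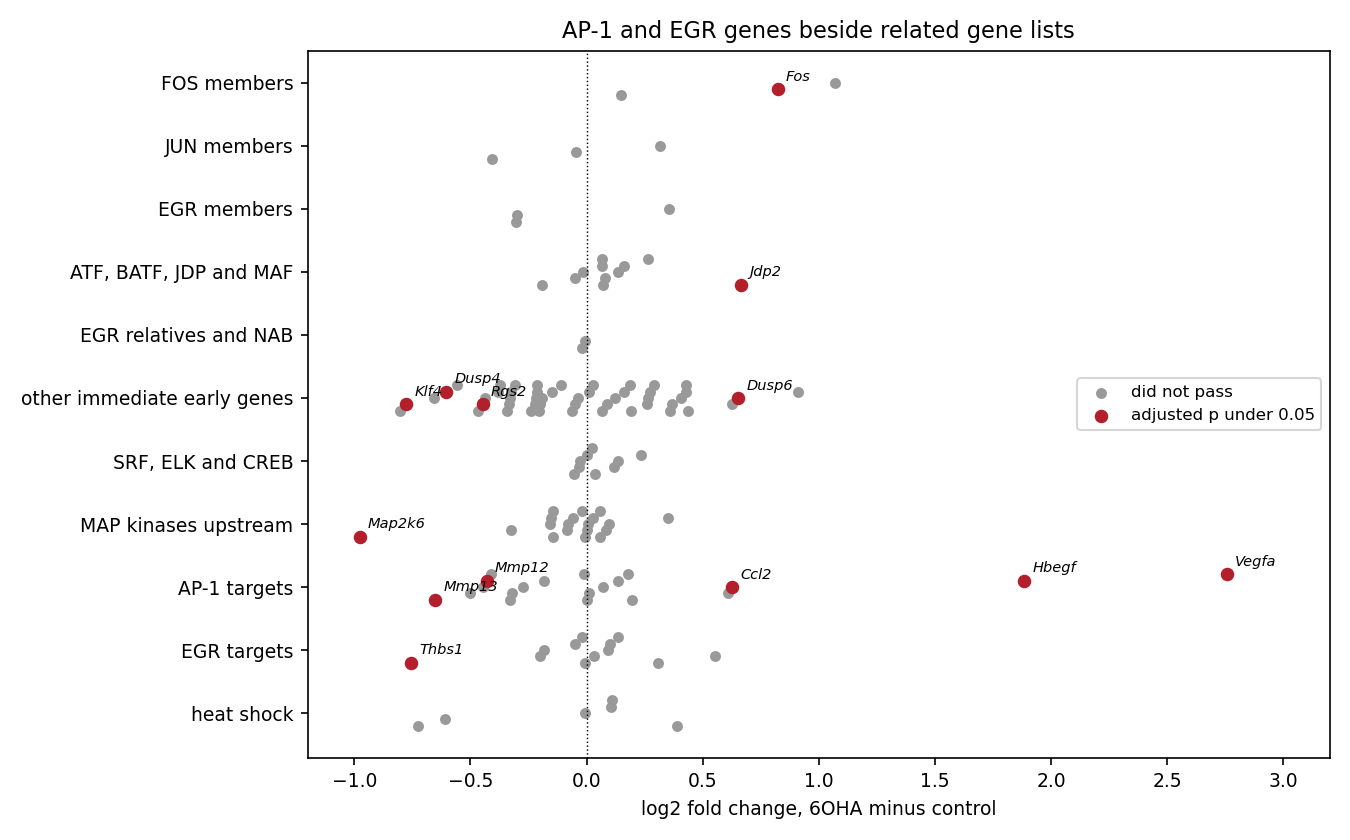
Log2 fold change of 6OHA minus control (x axis) for tested genes (points) of the 3 families and of related lists (rows). Red points passed an adjusted p of 0.05 in edgeR's quasi-likelihood test, and 1 called AP-1 partner is not plotted. Of the called genes, Vegfa lies farthest from 0 at 2.76, and called genes of the immediate early and AP-1 target lists lie on both sides.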

How the data were processed

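Gene-level read counts were deposited raw, per the file headers. FPKM (scaled by length and library size) and TPM (scaled to a common sum) were computed by the authors, per the file headers. The submitters' processing notes name bcl2fastq 2.20.0, Trimmomatic 0.38, HISAT2 2.1.0, Bowtie2, SAMtools 1.9, StringTie 2.1.3b and build mm10. How reads were counted, and whether strand was used, is not given in the sources used here, although the kit keeps strand per the labels.

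Genes were kept by filterByExpr (14634 of 45777), scaled by TMM (factors 0.990 to 1.01) and tested with edgeR 4.0.16's quasi-likelihood test with group as the only term and Benjamini-Hochberg adjustment over all tested genes. CPM levels use TMM-scaled library sizes. The SE was derived from the same fit, as the size of the log2 fold change before shrinkage divided by the square root of F. Intervals were centred on the reported, shrunken log2 fold change. The fit was also run on counts simulated from its own mean levels and dispersions. That simulation held no GC trend, which these libraries have, so nothing is read from it about the calls. Replicates were not copies (chi-square per degree of freedom 10.2 in 6OHA, 21.3 in control). Transcript sequences of GENCODE M21 gave GC content (available for 93.4% of the genes tested) and shared 31-base stretches, and RefSeq GRCm38.p6 gave positions. The GC trend was a loess curve (span 0.3) per library, entered as offsets. Alternatives used limma 3.58.1 and DESeq2 1.42.0 in R 4.3.3. Python 3.11.15 made tables and figures.

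The members and lists were chosen with earlier results of these data known, Vegfa, Hbegf, Ccl2, Klf4 and Cx3cr1 among them. Named were all members, the called genes of each list, the 2 most abundant tested genes where none was called, and the 2 most abundant markers of each cell type. Other genes were named after their values were seen. One called gene of the AP-1 partner list is not reported here.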

Additional observations from a re-analysis of the deposited data

How the results depend on the processing

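Scaling by DESeq2 size factors or upper quartiles, the legacy mode and a filter at a mean of 5 CPM kept 1 member, Fos, past the threshold. The DESeq2 test called 2 members (Fos and Jun) and the GC trend removed per library 3 (Fos, Jun and Egr1). The count was 0 with limma-voom, with no filter and with limma on log2(FPKM + 1), log2(FPKM + 0.1) and log2(TPM + 1), where 4, 4, 2, 3 and 4 members had an unadjusted p under 0.05. With 1 library left out it was 0 to 1, and which member passed differed, with Fos, none, Jun and Junb called without 6OHA replicate 1, 6OHA replicate 3, control replicate 1 and control replicate 2. Leaving out 1 library also unbalances the GC difference between replicates 1 and the others. Over all genes 295 passed, against 120 with no filter, 135, 149 and 152 on the FPKM and TPM values in the order above, 798 with the GC trend removed and 265 to 398 with 1 library left out. Of the related lists 13 genes passed, against 5, 4, 4, 4, 30 and 9 to 16 under the same settings. Directions turned for Junb, which ranged from -0.035 to 0.77 with 1 library left out, and for Jund, which ranged from -0.39 to 0.40 and was at 0.019 with limma-voom and 0.12 with the GC trend removed. The cause was not tested. The log2 ratios of the summed FOS, JUN and EGR levels kept their signs, at 0.25, -0.09 and 0.17 on TPM, 0.20, -0.15 and 0.18 on CPM and 0.21, -0.13 and 0.13 on FPKM. No paired analysis was possible because the groups share only 1 replicate number. Fosb and Fosl1 are limited by depth, at 14 to 34 and 0 to 3 counts.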
